A study of Mus musculus with 24 samples.

Results

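The replication-dependent histone genes make the H1, H2A, H2B, H3 and H4 proteins that package newly copied DNA. They were taken here as every gene symbol of the total RNA tables that begins with Hist1h, Hist2h, Hist3h or Hist4h and had 10 or more counts summed over the 12 total RNA libraries. That rule found 59 of the 23337 symbols listed, out of 68 symbols with such a name. Of these 59, 6 belong to the linker histone H1, 13 to H2A, 16 to H2B, 12 to H3 and 12 to H4. The H2B members include the pseudogene Hist3h2bb-ps. The members were thus chosen by their summed total RNA counts, and their levels are given as a description. Among the genes just inside the limit were Hist1h2aa with 32 counts, Hist1h1t with 51 and Hist1h2ah with 64, and just outside was Hist1h2ba with 6. The other 8 symbols left out had 0 counts.

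The measurements come from macrophages grown from mouse bone marrow, with ribosome-protected footprints (RPF) and total RNA sequenced from each culture. Groups were wild type C57BL/6J (WT, 6 cultures) and Apobec1-/- on the same strain (KO, 6 cultures), compared to ask how the RNA-editing enzyme APOBEC1 affects translation. Donors were 6 to 12 weeks old, littermates or matched for age, and all marrow was cultured for 7 days with the growth factor M-CSF, at 20 ng/mL from the start and with medium of 40 ng/mL at the medium change. Cultures came in 3 batches of 4: WT1, WT2, WT3 and KO1 in batch 1, WT4, KO2, KO3 and KO4 in batch 2, and WT5, WT6, KO5 and KO6 in batch 3. Whether every culture had a different donor mouse is not in the labels. The p-values therefore speak of the spread among these cultures alone, and that spread may be technical.

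In a dividing cell these genes are switched on together as DNA replication starts and are shut down when it ends. Their messages end in a short stem-loop in place of a poly(A) tail, and the stem-loop binding protein SLBP carries them through processing, export and translation. H2A, H2B, H3 and H4 form the core of the nucleosome, and H1 binds the DNA that enters and leaves it. Some members, HIST1H1C and HIST2H2BE in human cells among them, are also known to give polyadenylated transcripts. Macrophages grown in M-CSF are a mixture of dividing and resting cells, and in bulk RNA fewer cells of a type and less RNA per cell cannot be told apart.

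Total RNA libraries held 5077478 to 12059361 gene counts, and footprint libraries 29561 (WT6) to 3714912 (WT4). The 4 footprint libraries of batch 3 were shallow, at 29561 to 223504 counts. A footprint count of 0 thus allows from 0.823 CPM (counts scaled to a TMM-adjusted library of 1000000) in KO4 up to 80.4 CPM in WT6 (counting error only). Apobec1 footprints lay between 0 and 24.4 CPM in KO and between 59.6 and 102 CPM in WT. Apobec1 total RNA was higher in KO, at 604 to 1276 against 313 to 474 CPM (log2 change 1.34, SE 0.11, edgeR adjusted p = 1.39e-04), and the deleted part of the gene is not given in the sources used here, so the RNA level does not check the labels. Batch 3 differed from the others in more than histones. The 6 macrophage markers found in the files (such as Emr1 and Csf1r) summed to 2996 to 3362 CPM there, against 8037 to 12039 in batch 1 and 9281 to 13472 in batch 2. Cd68 of this list did not fall from batch 1, at 231 to 269 CPM in batch 1 and 282 to 310 CPM in batch 3. Neutrophil markers (14 of 14 in the files) summed to 57.6 to 67.2, 154 to 595 and 453 to 607 CPM in batches 1, 2 and 3, and monocyte markers (5 of 6) to 108 to 154, 330 to 543 and 200 to 262 CPM. Csf3r of the neutrophil list went the other way, at 41.7 to 49.8 CPM in batch 1 and 14.1 to 25.9 CPM in batch 3. Mmp9 of that list was lower as well, at 6.86 to 10.1 CPM in batch 1 and 1.19 to 3.42 CPM in batch 3. Within batch 2, WT4 had the highest neutrophil sum and the highest macrophage sum. Its Mmp8 was 227 CPM against 11.1 to 28.3 CPM in KO2, KO3 and KO4, while Cxcr2 of the neutrophil list did not stand apart. Ccr2, the highest of the monocyte list in batch 1, also went against its sum. It had 89.8 to 140 CPM in batch 1 and 61.5 to 97.4 CPM in batch 3, which overlap. Mast cell and basophil markers, mostly Kit, summed to 6.68 to 12.6, 2.15 to 4.05 and 40.3 to 69.1 CPM, and stromal and endothelial markers, mostly Vwf, to 133 to 165, 81.4 to 205 and 236 to 297 CPM. Lymphocyte markers (Cd3g at 0) and dendritic cell markers reached at most 8.27 and 8.43 CPM. Xist RNA had 172 to 386 counts in batch 3 and 2 to 11 counts in the other batches, and the Y-linked Ddx3y 0 to 1 counts in batch 3 and 374 to 1694 in the others. By these genes, batch 3 differed from batches 1 and 2 in the sex of the donors, which the labels used here do not give.

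Histone genes lie in clusters. On GRCm38 (mm10), 47 of the 59 lay on chromosome 13 between 21715711 and 23934913, 8 on chromosome 3 between 96219885 and 96270192, and 3 on chromosome 11 between 58948911 and 58955192. The remaining gene, Hist4h4, lay on chromosome 6 at 136803993 to 136804431, 14.2 Mb from Apobec1. All 59 matched a RefSeq gene, and 53 had a RefSeq promoter entry. In the 250 bases before the start, on both strands, CCAAT (the CCAAT box, bound by NF-Y) was found in 6 of 6 H1, 13 of 13 H2A, 13 of 13 H2B, 8 of 10 H3 and 3 of 11 H4 promoters, or 81.1% of members against 33.8% of all 32851 promoters. ATTTGCAT, the octamer bound by Oct-1, was found in 7 of 13 H2A and 5 of 13 H2B promoters and in none of the H1, H3 or H4 promoters (22.6% of members, 1.60% of all promoters). TATAAA was found in 27 of 53 (50.9% against 12.4%). Each motif was searched on its own, so matches to different motifs may share bases. A match describes letters only, not a bound site.

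Shown first are the promoters of Hist1h2bh, the H2B gene with the largest rise between batches 1 and 3, and Hist2h2bb, the most abundant core histone gene. They are followed by those of Hist2h3c1, the member that fell, and Hist4h4, which has the largest difference between genotypes. All are RefSeq sequence on GRCm38.p6, 5′ to 3′ on the gene's strand, with matches to the 3 motifs on either strand in capitals.
Hist1h2bh, promoter at chr13:23543445-23543694 (minus strand): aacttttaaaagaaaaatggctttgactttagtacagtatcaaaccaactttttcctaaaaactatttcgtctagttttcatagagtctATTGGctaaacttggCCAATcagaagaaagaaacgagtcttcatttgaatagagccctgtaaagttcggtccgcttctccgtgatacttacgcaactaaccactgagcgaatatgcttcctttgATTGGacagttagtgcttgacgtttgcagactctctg
Hist2h2bb, promoter at chr3:96269450-96269699 (plus strand): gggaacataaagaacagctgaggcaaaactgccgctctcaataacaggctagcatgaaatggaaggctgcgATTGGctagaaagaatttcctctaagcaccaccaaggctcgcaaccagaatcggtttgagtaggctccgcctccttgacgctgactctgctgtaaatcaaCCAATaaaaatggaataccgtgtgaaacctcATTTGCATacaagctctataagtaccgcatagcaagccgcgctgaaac
Hist2h3c1, promoter at chr3:96246435-96246684 (plus strand): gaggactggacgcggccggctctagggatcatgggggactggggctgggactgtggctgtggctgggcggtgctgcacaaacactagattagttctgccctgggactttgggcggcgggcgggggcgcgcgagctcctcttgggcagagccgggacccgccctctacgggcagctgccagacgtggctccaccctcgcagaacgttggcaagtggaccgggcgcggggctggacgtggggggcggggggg
Hist4h4, promoter at chr6:136804432-136804681 (minus strand): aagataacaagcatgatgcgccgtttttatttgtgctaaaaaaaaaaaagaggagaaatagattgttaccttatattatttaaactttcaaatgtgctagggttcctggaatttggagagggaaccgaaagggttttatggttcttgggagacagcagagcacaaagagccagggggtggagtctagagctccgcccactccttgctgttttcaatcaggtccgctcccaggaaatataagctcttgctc
Hist1h2bh has CCAAT letters on both strands, Hist2h2bb has CCAAT on both strands and the octamer, and neither Hist2h3c1 nor Hist4h4 has any of the 3 motifs in this window.

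Linker histones held the largest share of any group in total RNA, and the 4 core groups together held more. By mean CPM, H1 genes held 40.6%, 39.8% and 35.6% of the histone RNA in batches 1, 2 and 3. H2B held 23.2%, 22.1% and 25.1% and H4 14.2%, 17.0% and 18.3%. H2A was above H3 in batch 1 (12.1% against 9.89%) and batch 2 (10.7% against 10.5%) and below it in batch 3 (9.69% against 11.3%). Of the 198051 histone counts over the 12 libraries, the 3 most counted members, Hist1h1c, Hist2h2bb and Hist1h1d, held 31.8% and the first 10 held 60.6%. Hist1h1c, an H1 gene at 13:23738807-23739531, had 24852 counts, Hist2h2bb, an H2B gene at 3:96269700-96270192, had 19167, and Hist1h1d, an H1 gene, had 19055. Per kilobase of gene the order depended on the batch. Hist1h1c led in batches 1 and 2, at mean levels of 319 and 374 CPM per kb against 223 and 308 for Hist2h2bb, and Hist2h2bb led in batch 3, at 814 against 456 for Hist1h1c and 470 for Hist1h1d. The most counted genes of the other groups, with levels averaged over the 12 cultures, were Hist3h2a of H2A (129 CPM per kb), Hist1h4h of H4 (165 CPM per kb) and Hist1h3f of H3 (53.1 CPM per kb). At the other end, the testis genes Hist1h1t and Hist1h2aa averaged 0.505 and 0.400 CPM. Counts were above 0 in all 12 total RNA libraries for 57 members.

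Many of these genes are near-identical copies, and reads with more than 1 alignment made up 27.8% to 51.2% of total RNA reads and 45.6% to 80.1% of footprint reads. Reads with more than 1 alignment were counted for no gene, so how many each single core histone gene lost is uncertain. Group sums are given first, but they lack these reads as well. Shares and ratios of the groups carry the same limit, since the loss may differ between groups and between footprints and RNA. That loss was not measured.

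Summed over the 59 genes, total RNA was lowest in batch 1 and highest in batch 3. The sum was 1405, 1282, 1215 and 1176 CPM in WT1, WT2, WT3 and KO1. It was 1551, 1872, 2385 and 2346 CPM in WT4, KO2, KO3 and KO4, and 3763, 3631, 4024 and 2778 CPM in WT5, WT6, KO5 and KO6. The 3 batches did not overlap, and KO6 was the lowest of batch 3. The batch means of 1269, 2039 and 3549 CPM made batch 3 2.80 times batch 1 and 1.74 times batch 2. All 5 groups were higher in batch 3 than in batch 1, H4 by 3.62 times, H3 by 3.18, H2B by 3.03, H1 by 2.45 and H2A by 2.23.

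**Figure D1:**
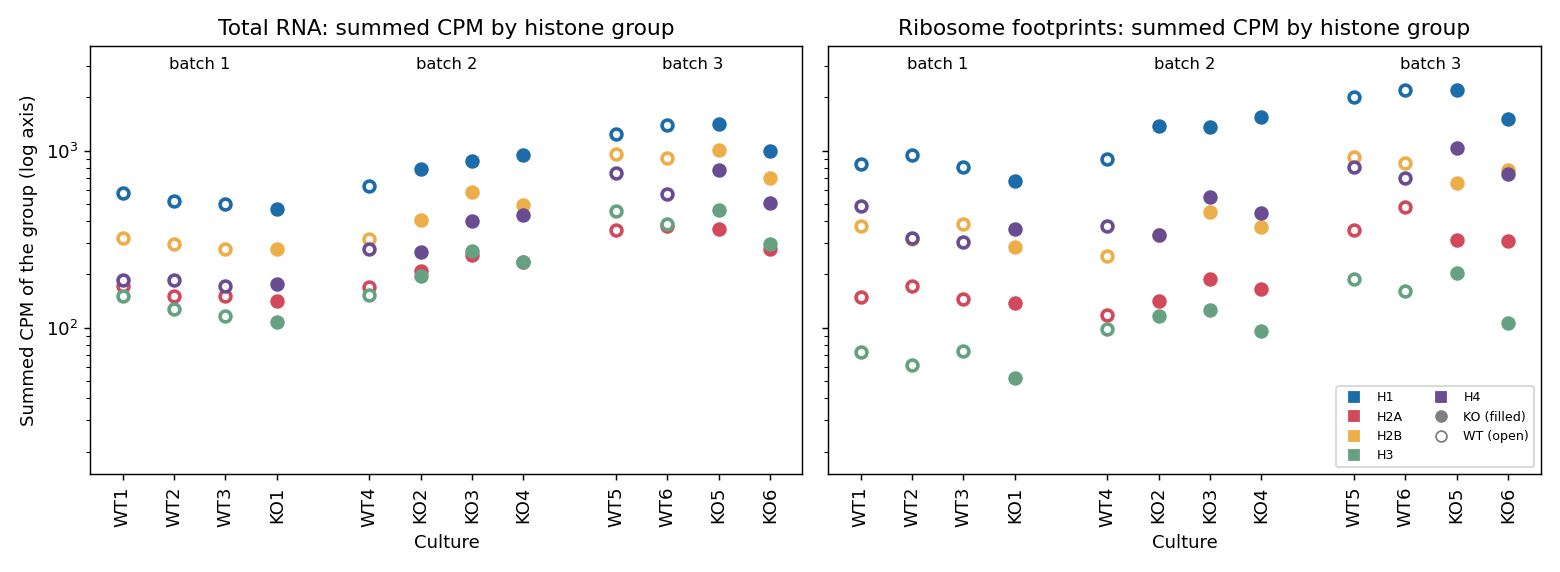
Summed CPM of each histone group (log axis) in each culture, total RNA at left and ribosome footprints at right; open circles are WT and filled circles KO, colours are the groups. In total RNA H1 runs from 470 CPM in KO1 to 1422 CPM in KO5, and all 5 groups are higher in batch 3 than in batch 1.

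Gene by gene, 52 members passed the low-count filter and were tested: 5 of H1, 11 of H2A, 14 of H2B, 10 of H3 and 12 of H4. The 7 not tested were Hist1h1t, Hist1h2aa, Hist1h2ah, Hist2h3b, Hist2h3c2, Hist3h2ba and the pseudogene Hist3h2bb-ps. Between batches 1 and 3, 50 of 52 were called at an adjusted p under 0.05, against 45.3% of the 10942 genes tested. Of these, 49 rose (23% of all genes rose) and 1 fell (22.3% of all genes fell). The median log2 change of the 52 was 1.67, and that of all genes 0.01. The rise was called in 5 of 5 H1, 11 of 11 H2A, 12 of 14 H2B, 9 of 10 H3 and 12 of 12 H4 genes. The 4 cultures of batch 3 were above the 4 of batch 1 with no overlap for 48 of 52 members (23.4% of all genes). Both counts include Hist1h2bk, Hist1h2bl and Hist1h2bp, which had 1 to 11 counts per library in batch 1. These genes passed the low-count filter through the other batches, where they were higher, so they add no support to the rise. The lower macrophage marker sum, the higher neutrophil marker sum and the higher Kit of batch 3 moved with this rise. In batch 2, WT4 had the highest neutrophil marker sum, 595 CPM, and the lowest histone sum, 1551 CPM. Single markers such as Cd68 and Csf3r did not follow the sums of their lists. Sex-linked genes moved with the rise as well. The part of the markers and of the sex-linked genes in it was not tested.

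**Figure D2:**
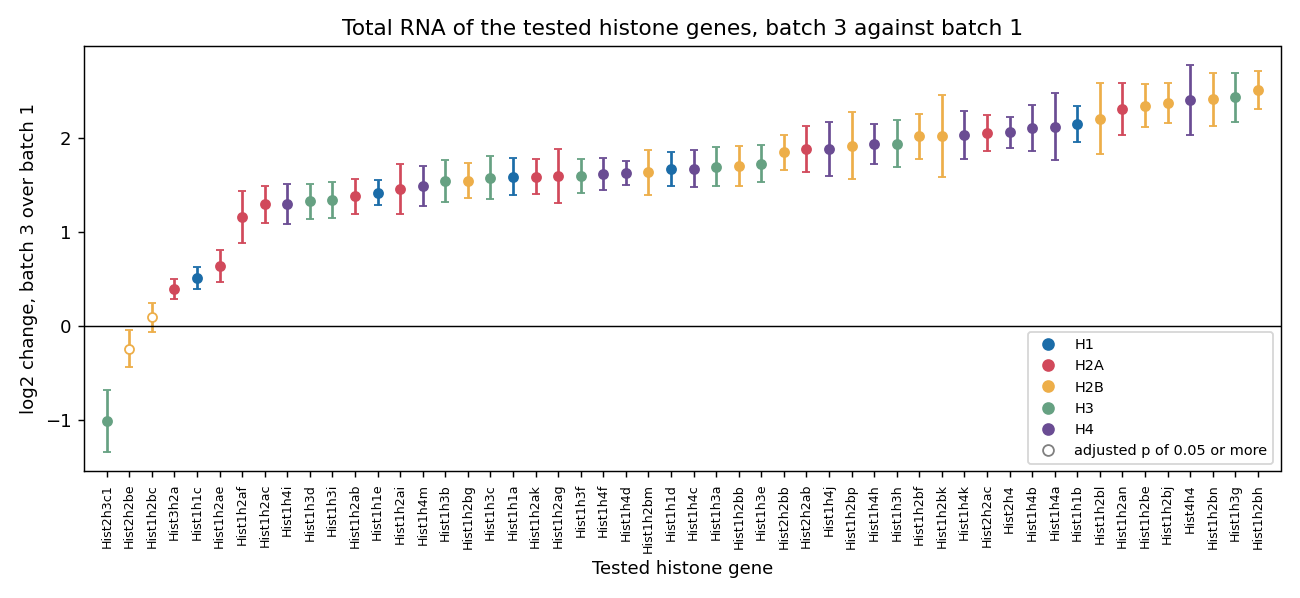
Change in total RNA from batch 1 to batch 3 (log2, vertical axis) for the 52 tested histone genes in order of size; bars are the SE of the fit over 12 libraries, filled points passed an adjusted p of 0.05 and colours are the groups. Hist2h3c1 stands at -1.01, Hist2h2be and Hist1h2bc are open points near 0, and Hist1h2bh is the highest at 2.51.

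Hist2h2bb, the most abundant core histone gene, shows the common pattern. It had 125, 107, 103 and 106 CPM in WT1, WT2, WT3 and KO1, and 109, 128, 205 and 164 CPM in WT4, KO2, KO3 and KO4. In WT5, WT6, KO5 and KO6 it had 442, 399, 464 and 300 CPM. Its 4 batch 3 values were above all others, for a log2 change of 1.84 over batch 1 (SE 0.19, edgeR adjusted p = 9.63e-06). Hist1h1d, a linker histone gene, moved alike, from 140, 113, 104 and 96.8 CPM in WT1, WT2, WT3 and KO1 to 379, 376, 426 and 277 CPM in WT5, WT6, KO5 and KO6 (log2 change 1.67, SE 0.18, adjusted p = 1.49e-05). Hist1h1b, another linker histone gene, rose by 2.14 (SE 0.19, adjusted p = 3.20e-06). Hist1h4h, the most counted H4 gene, rose by 1.93, from 26.6 to 39.3 CPM in batch 1 to 92.0 to 152 CPM in batch 3. For Hist1h3a, an H3 gene, the rise was 1.69, from 21.3 to 29.5 CPM to 52.5 to 104 CPM.

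The largest rise was that of the H2B gene Hist1h2bh (13:23542923-23543444). It had 3.47, 3.70, 4.08 and 2.91 CPM in WT1, WT2, WT3 and KO1, then 8.77, 9.12, 16.2 and 12.6 CPM in WT4, KO2, KO3 and KO4, and 18.7, 23.6 and 18.5 CPM in WT5, WT6 and KO6, with KO5 among them. The 3 batches were separate, and the log2 change from batch 1 to batch 3 was 2.51 (SE 0.21, edgeR adjusted p = 1.11e-06). The next largest were those of Hist1h3g, an H3 gene (2.43, SE 0.26), and Hist1h2bn, an H2B gene (2.41, SE 0.28).

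Linker histone gene Hist1h1c, the most counted member over the 12 libraries, moved least among the H1 genes tested. It had 240, 232, 222 and 229 CPM in WT1, WT2, WT3 and KO1, 219, 265, 276 and 324 CPM in WT4, KO2, KO3 and KO4, and 343, 361, 333 and 285 CPM in WT5, WT6, KO5 and KO6. Batches 1 and 3 did not overlap, yet the log2 change was 0.51 (SE 0.11, adjusted p = 0.0027), against 1.41 to 2.14 for the other 4 H1 genes. Among H2A genes the smallest rises were those of Hist3h2a (0.40, SE 0.11, adjusted p = 0.00762) and Hist1h2ae (0.64, SE 0.17, adjusted p = 0.00728).

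Batches 1 and 3 overlapped in 4 members, Hist3h2a, Hist1h2bc, Hist2h2be and Hist2h3c1. Hist1h2bc, an H2B gene whose RefSeq gene spans 13:23684199-23692480, had 57.7 to 77.7 CPM in batch 1, 34.4 to 58.7 CPM in batch 2 and 54.3 to 77.4 CPM in batch 3. Its change from batch 1 to batch 3 was 0.09 on the log2 scale (SE 0.15, adjusted p = 0.656). Hist2h2be, an H2B gene 2667 bases long, had 6.87 to 8.18 CPM in batch 1, 4.63 to 9.40 CPM in batch 2 and 5.80 to 6.94 CPM in batch 3 (log2 change -0.24, SE 0.19, adjusted p = 0.326). Hist2h3c1, an H3 gene at 3:96246685-96247348, had 2.89, 2.74, 1.70 and 3.43 CPM in WT1, WT2, WT3 and KO1 against 1.81, 0.74, 1.13 and 1.85 CPM in WT5, WT6, KO5 and KO6. It was the member that fell (log2 change -1.01, SE 0.33, adjusted p = 0.0216), at a sum of 215 counts over 12 libraries. That call was lost without KO1 (adjusted p = 0.0916), WT1 (0.0512), KO5 (0.0605) or WT6 (0.0799).

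**Figure D3:**
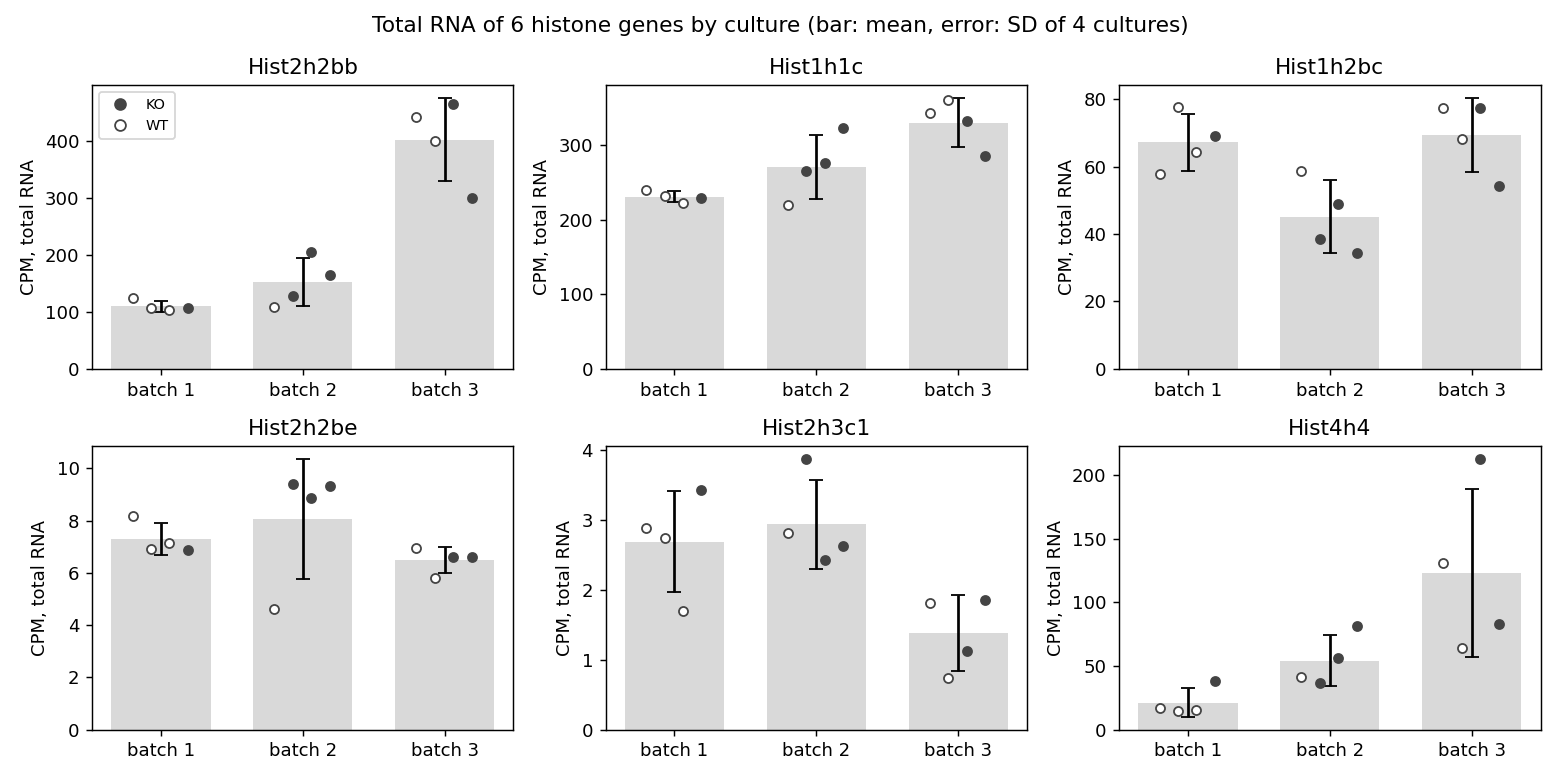
Total RNA CPM of 6 histone genes by batch; each point is a culture (open WT, filled KO), grey bars are means of 4 cultures and error bars their SD. Hist2h2bb rises to 300 to 464 CPM in batch 3 while Hist1h2bc stays between 34.4 and 77.7 CPM in all batches and Hist4h4 is spread widest in batch 3.

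Batch 2 lay between the other 2. Against batch 1, 31 of 52 members were called (23.5% of all genes), 30 of them higher (12.7%) and 1 lower (10.8%), with a median log2 change of 0.81. H2B genes made up 11 of the 30, beside 4 H1, 4 H2A, 5 H3 and 6 H4 genes. CPM was higher in every culture of batch 2 than of batch 1 for 27 members (16.9% of all genes). The largest changes were those of the H2B genes Hist1h2bl (2.28, SE 0.41, adjusted p = 0.00225), Hist1h2bk (1.87, SE 0.48, adjusted p = 0.0144) and Hist1h2bh (1.68, SE 0.23, adjusted p = 5.12e-04). In batch 1 Hist1h2bl had 3 to 11 counts per library and Hist1h2bk 1 to 7. Both passed the low-count filter through the other batches, where they were higher, so their changes rest on few counts. The same holds for Hist1h2bp, also among the 30, with 4 to 9 counts per library in batch 1. Hist1h2bc was the 1 lower (-0.48, SE 0.17, adjusted p = 0.0486), and with RLE size factors none was lower. That call was lost without KO1, KO2, KO4, KO5, WT2, WT3, WT5 or WT6 (adjusted p 0.0527 to 0.247). WT4, the WT culture of this batch, had 1551 CPM in all, the lowest of the 4. Without KO1 the count fell to 20.

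Against batch 2, batch 3 had 42 of 52 members called (49.2% of all genes), 41 higher (24.7%) and 1 lower (24.5%), with a median of 0.82. CPM did not overlap in 24 higher members (20.7%) and 1 lower (20.6%). The H4 gene Hist1h4k rose most (1.74, SE 0.27, adjusted p = 1.86e-04), then Hist1h3g (1.64, SE 0.26, adjusted p = 2.68e-04) and Hist2h2bb (1.44, SE 0.19, adjusted p = 7.03e-05). Hist2h3c1 was lower (-1.02, SE 0.34, adjusted p = 0.0214), without overlap, and the call was lost without KO2, KO5 or WT4 (adjusted p 0.063 to 0.0877). Without KO5 the count of called members was 26. On chromosome 13 the median change from batch 1 to batch 3 was 1.92 for the tested genes of the block at 21715711 to 21812150, 1.80 at 22035122 to 22043658 and 1.61 at 23531044 to 23934913.

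Footprints of the whole family were also highest in batch 3. They summed to 1925, 1817, 1712 and 1512 CPM in WT1, WT2, WT3 and KO1, to 1749, 2304, 2671 and 2632 CPM in WT4, KO2, KO3 and KO4, and to 4284, 4393, 4398 and 3434 CPM in WT5, WT6, KO5 and KO6. Batch 3 was above the other 2 with no overlap, at 2.37 times batch 1 and 1.76 times batch 2. Batch 3 was above batch 1 by factors close to each other, 2.42 times for H1, 2.41 for H2A, 2.35 for H2B, 2.54 for H3 and 2.23 for H4. From batch 1 to batch 2 they did not move alike: H3 was 1.68 times and H1 1.59 times higher, while H4 (1.16), H2B (1.03) and H2A (1.02) stood closer to 1.

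Only 26 members could be tested in footprints, 5 of H1, 5 of H2A, 5 of H2B, 4 of H3 and 7 of H4. From batch 1 to batch 3, 16 rose and none fell (20.8% of the 7208 genes tested were called, 9.54% rose). The median of the 26 was 1.25, and of all genes -0.03. CPM did not overlap for 14 (7.99% of all genes). Hist4h4, an H4 gene outside the large clusters, rose by 2.50 (SE 0.29, adjusted p = 2.70e-07), Hist1h3a by 2.86 (SE 0.49, adjusted p = 5.41e-05) and the H2A gene Hist1h2ab by 2.40 (SE 0.38, adjusted p = 2.43e-05). All 5 H1 genes tested rose, Hist1h1b by 1.73 and Hist1h1c by 0.79. From batch 2 to batch 3, 16 were called (22.5%), 15 higher (10.9%) and 1 lower (11.7%), with a median of 1.07. CPM did not overlap for 12 higher members (8.16%) and 1 lower (14.9%). The largest was that of the H2A gene Hist2h2ac (2.22, SE 0.43, adjusted p = 2.44e-04), whose footprints were 13.7, 107, 63.7 and 84.8 CPM in WT5, WT6, KO5 and KO6 and 8.73 to 14.6 CPM in batch 2. Every batch 3 footprint library is shallow, so these changes could not be fitted without them. Without WT4 the second count was 10.

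Between batches 1 and 2, whose footprint libraries are deeper, 9 of 26 members were called (15.4%), 7 higher (8%) and 2 lower (7.37%). The median was 0.39, and CPM did not overlap for 7 higher members (11.9%) and 2 lower (11.3%). Those higher included Hist1h4c (1.66, SE 0.47, adjusted p = 0.0319), Hist1h3e (1.60, SE 0.30, adjusted p = 3.54e-04) and Hist1h3f (1.41, SE 0.33, adjusted p = 0.00368). The call of Hist1h4c was lost without KO1, KO5, WT2, WT3 or WT4 (adjusted p 0.0534 to 0.104). Without WT3 the count of called members was 4.

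The H4 gene Hist1h4h and the H2B gene Hist1h2bh were lower in footprints while their total RNA was higher. Footprints of Hist1h4h were 166, 103, 92.4 and 101 CPM in WT1, WT2, WT3 and KO1 and 33.9, 20.3, 53.2 and 39.2 CPM in WT4, KO2, KO3 and KO4. The 2 batches did not overlap (log2 change -1.75, SE 0.29, edgeR adjusted p = 4.62e-04). Total RNA of Hist1h4h was 36.3, 39.3, 33.4 and 26.6 CPM in the same batch 1 cultures and 40.9, 41.3, 70.3 and 61.8 CPM in those of batch 2, a rise of 0.70 (SE 0.24, adjusted p = 0.0499). The RNA call was lost without KO1, KO3, KO4, KO6 or any of the WT cultures except WT4 (adjusted p 0.058 to 0.222), and the footprint call was not. For Hist1h2bh the footprint change was -1.16 (SE 0.40, adjusted p = 0.0424), from 11.2 to 22.6 CPM in batch 1 to 5.22 to 17.7 CPM in batch 2, which overlap. That call was lost without KO2, KO4, KO6, WT2, WT3, WT4 or WT6 (adjusted p 0.0522 to 0.577). The difference between the footprint and the RNA change was not tested for either gene.

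Footprints per total RNA differed between the groups. The summed footprint CPM divided by the summed RNA CPM of the same culture was 1.58 ± 0.120 for H1 and 1.52 ± 0.456 for H4 (SD, n = 12 cultures). It was 0.954 ± 0.209 for H2B, 0.917 ± 0.194 for H2A and 0.486 ± 0.0928 for H3. H1 stayed between 1.42 and 1.83 in all 12 cultures, with batch means of 1.58, 1.59 and 1.56, while H4 had batch means of 2.04, 1.25 and 1.27. H1 took 46.9%, 55.5% and 47.9% of the histone footprint CPM in batches 1, 2 and 3, and H3 took 3.73%, 4.66% and 3.99%, so H1 was above and H3 below its share of histone RNA in every batch (40.6%, 39.8% and 35.6% for H1, 9.89%, 10.5% and 11.3% for H3). Footprints were counted in coding sequence and the region counted for RNA is not given in the sources used here, so the ratio of a gene compares between cultures more firmly than between genes. Reads with more than 1 alignment are missing from both counts, and their part in the differences between groups was not tested.

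In the joint fit 18 of 26 members differed between footprints and RNA, relative to the average gene (73.9% of 7203 genes). Higher were 16 (37.3% of all genes) and lower were 2 (36.6%), with a median of 0.54. With RLE size factors 16 were higher and 5 lower. All 5 H1 genes tested were higher, led by Hist1h1e (1.17, SE 0.12, adjusted p = 2.07e-10), with Hist1h1c at 0.40 (SE 0.09, adjusted p = 3.35e-04). The largest were those of the H4 gene Hist1h4a (2.15), the H3 gene Hist1h3d (2.04) and the H2A gene Hist1h2af (1.52). Called lower were the H3 genes Hist1h3a (-1.44, SE 0.17, adjusted p = 8.72e-09) and Hist1h3f (-1.22, SE 0.16, adjusted p = 6.50e-08). Hist1h3d and Hist1h3a thus lay at opposite ends within the H3 group: Hist1h3d had 602 RNA counts and 324 footprints, and Hist1h3a had 4047 RNA counts and 186 footprints.

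A set of 10 members had 0 footprints in all 12 libraries although they held 12638 RNA counts, 6.38% of the histone total. They were Hist1h2bc with 5643 RNA counts, the H4 gene Hist1h4m with 3730, the H2A gene Hist1h2ag with 1429, Hist1h2bn with 763, Hist1h2ai with 477, Hist2h3c1 with 215, Hist1h2bk with 124, Hist2h3b with 110, Hist2h3c2 with 83 and Hist1h2ah with 64. Hist1h3h, an H3 gene, had 2764 RNA counts and 2 footprints, and Hist1h2bg, an H2B gene, had 3363 and 58. Among members with 1000 or more RNA counts, 3 of 33 were listed at 0 footprints, against 1.20% of the 8319 genes at that level. Reads that fit more than 1 copy are common in these libraries, and the part they play in these counts of 0 was not tested. Taken over members with at least 1 footprint, the ratio was 1.73 for H4, 1.15 for H2B, 1.01 for H2A and 0.498 for H3.

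**Figure D4:**
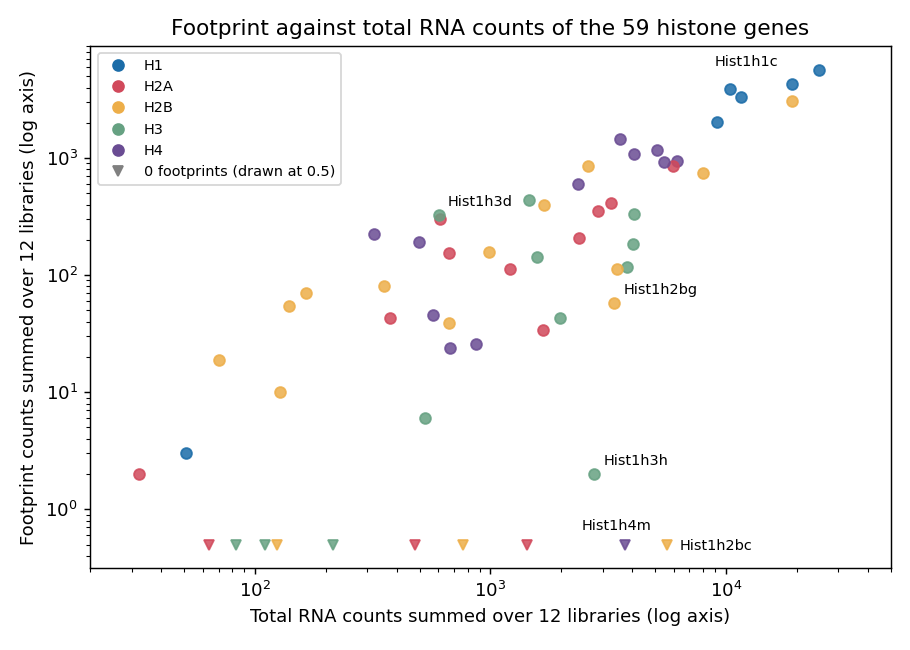
Footprint counts against total RNA counts of the 59 histone genes, each summed over 12 libraries (both axes log); colours are the groups and triangles are the 10 genes with 0 footprints, drawn at 0.5. H1 genes sit at the top right, led by Hist1h1c with 24852 RNA counts and 5682 footprints, and Hist1h2bc and Hist1h4m sit at 0 footprints.

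Between genotypes no member was called. In total RNA, with batch as a term, 0 of 52 had an adjusted p under 0.05 (2 of 10942 genes, 0.0183%), and 2 had an unadjusted p under 0.05. The median log2 difference was 0.03, with 29 members above 0 and 23 below, and the range was -0.20 to 0.76. In footprints 0 of 26 were called (0.0832% of all genes) and 1 had an unadjusted p under 0.05, with a median of 0.08. For footprints relative to total RNA 0 of 26 were called (0.0139%) and none had an unadjusted p under 0.05, with a median of 0.07. DESeq2 and limma's voom gave 0 in all 3 as well. The summed footprint to RNA ratio was 1.18 ± 0.0793 in KO and 1.28 ± 0.136 in WT (SD, n = 6 each), and the genotypes are spread unevenly over the batches. Leaving out the footprint libraries under 1000000 counts kept WT1, WT4, KO2 and KO4. WT1 was then alone in batch 1, so the genotype difference was that of KO2 and KO4 against WT4 alone. Some members were called higher in KO in that fit, which had 1 residual degree of freedom and cannot separate genotype from the single culture WT4.

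Hist4h4 had the largest genotype difference in total RNA and in footprints. Its total RNA was 16.8, 14.7 and 15.7 CPM in WT1, WT2 and WT3 and 38.0 CPM in KO1. In batch 2 it was 41.7 CPM in WT4 and 36.9, 56.2 and 81.4 CPM in KO2, KO3 and KO4, and in batch 3 it was 131 and 64.2 CPM in WT5 and WT6 and 212 and 83.4 CPM in KO5 and KO6. KO and WT overlapped in batches 2 and 3. Its difference was 0.76 (SE 0.31, edgeR adjusted p = 0.859), with within-batch differences of 1.26, 0.41 and 0.54. Footprints of Hist4h4 differed by 0.81 (SE 0.21, edgeR adjusted p = 0.166), with 1.51, 0.35 and 0.60 within batches. They were 16.3, 16.2 and 30.8 CPM in WT1, WT2 and WT3, 60.2 CPM in KO1, 48.4 CPM in WT4, 56.3, 55.3 and 77.1 CPM in KO2, KO3 and KO4, 119 and 187 CPM in WT5 and WT6, and 305 and 170 CPM in KO5 and KO6. Without the low-count filter the footprint difference was called (adjusted p = 0.00334).

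Within batches the direction of the genotype difference was not shared. In total RNA KO was above WT for 13 of 52 members in batch 1, 50 of 52 in batch 2 and 8 of 52 in batch 3, with medians of -0.21, 0.55 and -0.16, while the medians of all genes were near 0. The summed total RNA of KO was 0.905, 1.42 and 0.920 times that of WT in batches 1, 2 and 3, and footprints gave 0.832, 1.45 and 0.903. A shared sign in all 3 batches was found for 6 of 52 members in total RNA and 2 of 26 in footprints. Batch 1 has 1 KO culture and batch 2 has 1 WT culture, so the batch 2 values rest on WT4. WT4 also had the highest neutrophil marker sum of its batch, and the part of that in these differences was not tested. Without WT4 the median genotype difference was -0.17 in total RNA and -0.27 in footprints. In the test of a genotype effect that differs between batches, 1 of 52 members was called (0.987% of all genes) and 14 had an unadjusted p under 0.05. The called gene, the H2B gene Hist1h2bm, had KO minus WT differences of -0.47, 1.26 and -0.11 in batches 1, 2 and 3 (edgeR adjusted p = 0.0177). Its total RNA was 16.4, 14.8 and 14.8 CPM in WT1, WT2 and WT3 and 11.0 CPM in KO1, 15.1 CPM in WT4 and 33.2, 37.0 and 39.1 CPM in KO2, KO3 and KO4, and 49.1, 46.1, 49.1 and 39.3 CPM in WT5, WT6, KO5 and KO6. WT4 thus had the level of batch 1. Without WT4 no member was called, but batch 2 then has no WT culture and its genotype difference is not in the test.

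**Figure D5:**
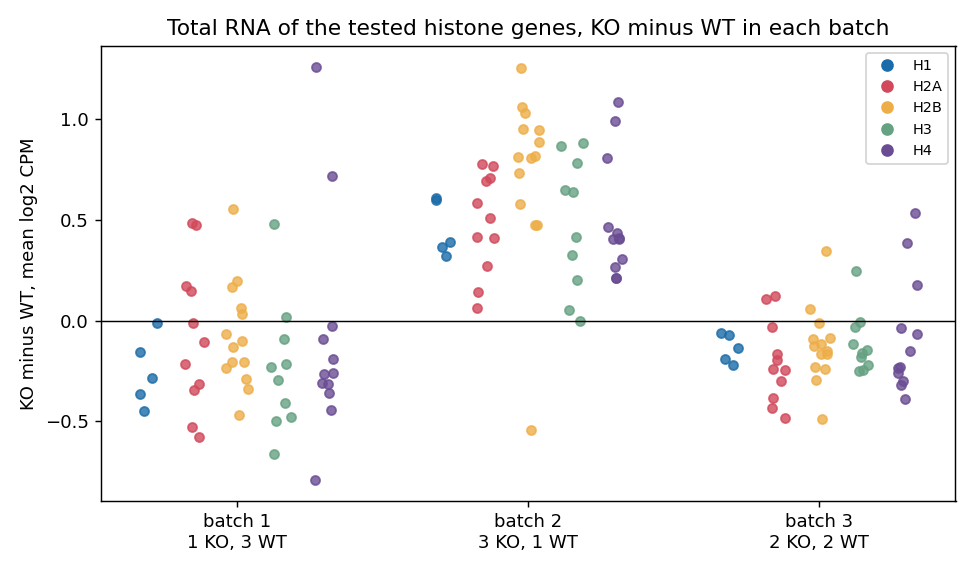
KO minus WT difference in mean log2 CPM of total RNA for the 52 tested histone genes (points) in each batch; colours are the groups and points are spread sideways for view. In batch 2, which has 1 WT culture, 50 of 52 points are above 0, against 13 in batch 1 and 8 in batch 3.

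Genes that make, carry and replace these histones are given from lists chosen for their roles. For transcription, processing and turnover of histone messages, 15 genes were tested in total RNA, and from batch 1 to batch 3 none rose and 3 fell (23% of all genes rose and 22.3% fell), with a median of 0.13, so the share that fell was near that of all genes. Those that fell were Zcchc6, a uridylyl transferase (-0.68, SE 0.09, edgeR adjusted p = 6.17e-05), Upf1, the helicase of RNA decay (-0.59, SE 0.13, adjusted p = 0.00241), and Cpsf3, the nuclease that cuts the message end (-0.29, SE 0.09, adjusted p = 0.0142). Slbp, which binds the stem-loop, lay between 59.4 and 91.9 CPM in all cultures, with a change of 0.13 (SE 0.10, adjusted p = 0.298). Among histone chaperones and assembly factors 5 of 15 rose and 2 fell, against the same 23% and 22.3% of all genes. Asf1b rose most (1.29, edgeR adjusted p = 1.38e-06). Chaf1b (0.92, adjusted p = 2.86e-04), Chaf1a (0.71, adjusted p = 3.58e-04) and Rbbp4 (0.21, adjusted p = 0.0403) were also higher. Lower were Atrx (-0.86, adjusted p = 1.06e-05) and Daxx (-0.27, adjusted p = 0.0319), which deposit an H3 variant.

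Replication-independent histone variants rose in 6 of 9 and fell in 1, where 23% of all genes rose and 22.3% fell. H2afx, the variant marked at DNA breaks, rose by 1.46 (SE 0.12, adjusted p = 1.38e-06), H2afz by 0.90 (SE 0.13, adjusted p = 9.21e-05) and H3f3a by 0.36 (adjusted p = 0.0152). Of DNA replication genes 20 of 30 rose and none fell, with a median of 0.57, and of mitosis genes 19 of 20 rose and none fell, with a median of 1.05. The shares of all genes were again 23% and 22.3%, and their median was 0.01. The ribonucleotide reductase subunit Rrm2 rose by 1.25 (SE 0.16, adjusted p = 3.37e-05) and the cyclin Ccna2 by 1.50 (SE 0.14, adjusted p = 2.85e-06). Pcna, the sliding clamp, changed by 0.23 (SE 0.14, adjusted p = 0.191) and Mki67 by 0.50 (SE 0.21, adjusted p = 0.0714). In footprints 10 of 29 replication genes and 15 of 20 mitosis genes rose from batch 1 to batch 3, and none fell (9.54% of all genes rose and 11.2% fell). No gene of these 5 lists was called between genotypes in total RNA.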

How the data were processed

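Counts of total RNA and of ribosome footprints, both raw and per gene, are as the authors deposited them, with 1 table for each of the 24 libraries. Per the submitters' processing notes the tools were TopHat2 2.1.0, Bowtie 1.1.2, Cufflinks 2.2.1, HTSeq, DESeq, DESeq2 and Trim Galore and the build was mm10, with no role or order given. Footprints were counted in coding sequence, per the file names, and the 5 summary lines that name no gene were left out.

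Genes were tested across the whole tables with edgeR 4.0.16 in R 4.3.3 (quasi-likelihood F-test, TMM, filterByExpr with a minimum count of 10, terms for batch and genotype) and called at a Benjamini-Hochberg adjusted p under 0.05 over all genes. Footprints and total RNA were compared in joint fits without culture as a block. DESeq2 1.42.0 and limma 3.58.1 were used as alternatives. CPM uses TMM library sizes and within-batch log2 values use a prior count of 2. In simulated total RNA counts with 200 genes changed, the genotype test recovered 88.9% of genes at a log2 change of 1 and 99% at 2 (10851 genes). At a log2 change of 1 it recovered 85.1% in simulated footprints and 70.2% for footprints relative to total RNA.

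The members and lists were chosen with earlier results of these data known. The filter was grouped by genotype after a first run. Levels per kilobase use the RefSeq gene length of genes with 1 transcript under 1 kb, and promoters were searched over 250 bases, both set after the tables were seen. Genes were named as follows: the 3 most counted of each group, the 3 called with the largest change in each direction, members near the 10-count limit, and from each pathway list up to 4 of those with the smallest p. Members named outside this (such as Hist2h2be, Hist1h2bm, Hist1h3h and those with 0 footprints) were chosen after their values were seen. So were Asf1b, Chaf1a and Chaf1b of the chaperone list.

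Footprint and RNA libraries were paired by the culture number in their titles. Deviations of the paired libraries from their genotype means correlated across genes at 0.219 to 0.558 in 12 cultures. For 9 of 12 footprint libraries the RNA library of the same culture matched best. The means were taken over all batches, so batch differences enter these correlations, which cannot settle the pairing. The replicate numbers shared by KO and WT did not pair the samples.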

Additional observations from a re-analysis of the deposited data

Results flagged for a closer look

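A search for single cultures that stood apart covered 136 groups of 6 cultures, KO or WT, in total RNA or footprints. It took the detected members named by rule, the sums of the 5 histone groups and the sum of the whole family. Members outside the naming rule were not searched. In 8 groups, or 5.88%, a culture stood far from the other 5. Some members were named for their large changes, and the 6 cultures span batches that differ in level, so no chance rate is given. Of the 8 flagged groups, 2 were in total RNA. Hist4h4, an H4 gene on the chromosome of Apobec1, had 212 CPM in KO5 against 36.9 to 83.4 CPM in the other KO cultures, and the testis H1 gene Hist1h1t had 0.528 CPM in KO1 against 0 to 0.174 CPM.

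The other 6 were in footprints, and 5 of them in shallow libraries of batch 3. Of KO cultures, KO5 stood high in the H3 genes Hist1h3a (59.2 CPM against 6.50 to 21.2) and Hist1h3d (68.3 against 15.1 to 31.8) and in the H4 gene Hist1h4k (4.55 against 0 to 1.63). Of WT cultures, WT6 stood high in the H2A gene Hist2h2ac (107 CPM against 12.9 to 16.4), WT5 in the testis H2A gene Hist1h2aa (4.58 against 0 to 0.508) and WT1 in Hist1h4k (4.57 against 0 to 1.16). The values of Hist1h4k in KO5 and of Hist1h2aa in WT5 each rest on 1 count and that of Hist2h2ac in WT6 on 4 counts.

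The genotype difference of the H2B gene Hist1h2bm in total RNA differed between batches (edgeR adjusted p = 0.0177), at -0.47, 1.26 and -0.11 (log2, KO minus WT) in batches 1, 2 and 3. WT4 is the only WT culture of batch 2.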

How the results depend on the processing

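Counts of called members stayed within 1.5 times of those reported under DESeq2, RLE size factors, no low-count filter, voom with quality weights, without cultures KO6 and WT6, and without the genotype or batch term, except as follows. Without the low-count filter 1 member was called between genotypes in footprints, 15 between batches 1 and 2 in footprints, 50 between footprints and total RNA, and 15 for a genotype effect that differs between batches, where DESeq2 called 2. With WT cultures only, 9 members differed between footprints and total RNA (14 tested). Without footprint libraries under 1000000 counts 8 members were called between genotypes in footprints, and batch 3 could not be fitted.

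Leaving out each culture gave 0 to 0 calls between genotypes in total RNA, in footprints and in footprints relative to RNA. For batch 2 against 1 it gave 20 to 39 in total RNA and 4 to 10 in footprints, for batch 3 against 1 49 to 51 and 12 to 17, for batch 3 against 2 26 to 42 and 10 to 19, and for footprints against RNA 15 to 24. For the genotype effect that differs between batches, an alternative chosen after seeing the data, it gave 0 (without WT4) to 2 (without KO3 or WT6). Without WT4 or KO1 a batch lacks a genotype, so its genotype difference is not in that test. With the replicate number as a block 0 members were called between genotypes in total RNA and 0 in footprints, with same-numbered cultures correlated at 0.0741 to 0.868 and 0.0732 to 0.328 and best with their own number in 2 of 6 pairs each. With culture as a block 0 were called for footprints relative to RNA and 20 for footprints against RNA. No value of a named gene changed sign, 108 lost their call under an alternative and 1188 kept their side of the threshold. Depth limits footprints, in which 26 of 59 members could be tested.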
